A study of Mus musculus with 2 samples.

Results

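Of 6220 kept cells in 2 libraries of mouse biliary epithelial cells, 374 carried at least 3 transcripts of 7 plasma protein genes, and 373 of them came from the library labelled Sox9cKO. The 7 genes are Hp, Serpina1b, Serpina1e, Fga, Fgb, Hpx and Plg. Kept cells had 500 or more detected genes, 1000 or more unique transcripts (UMIs, counted through unique molecular identifiers) and no more than 15% mitochondrial UMIs. A kept cell was called a plasma protein cell when its UMIs over the 7 genes summed to 3 or more. The class is thus cut from a count per cell and is a range, not a cell type. The study profiled biliary epithelial cells of the liver, which line the bile ducts. It has 1 library of genotype Sox9cKO and 1 of genotype Sox9con, and the series title calls the cells deficient in the transcription factor Sox9. The labels give no strain, age, Cre driver or other allele for either. The 373 cells were compared with the other 2340 kept cells of the same library. With 1 library in each group there is no test of a difference between groups, no p-value is given, and every interval is a 95% interval for counting error only.

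Plasma proteins are secreted into the blood mainly by hepatocytes, the parenchymal cells of the liver. Hp encodes haptoglobin, which binds free haemoglobin, and Hpx encodes hemopexin, which binds haem. Serpina1b and Serpina1e are mouse copies of alpha-1-antitrypsin, an inhibitor of neutrophil elastase. Fga and Fgb encode chains of fibrinogen, the precursor of the fibrin clot, and Plg encodes plasminogen, the precursor of the protease that dissolves it. Hepatocytes and biliary cells arise from common hepatoblasts and share several regulators, among them HNF1 factors, while keratins 7 and 19 and Epcam mark the biliary lineage. Sox9 is a regulator of biliary fate.

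The promoters of 4 of the 7 genes are shown because each holds the letters of an HNF1 half-site close to its start, a motif known from liver genes. They were taken from a RefSeq table of build GRCm38.p6, and each line gives the 250 bases before the annotated start, 5′ to 3′ on the gene's own strand. Capitals mark GTTAAT or its reverse complement ATTAAC.
Fga (chr3:83025903-83026152, plus strand): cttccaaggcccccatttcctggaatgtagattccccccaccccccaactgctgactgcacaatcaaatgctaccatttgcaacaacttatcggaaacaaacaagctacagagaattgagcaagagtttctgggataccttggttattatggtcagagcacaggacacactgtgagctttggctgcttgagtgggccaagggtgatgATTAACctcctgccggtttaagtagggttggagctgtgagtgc
Fgb (chr3:83049864-83050113, minus strand): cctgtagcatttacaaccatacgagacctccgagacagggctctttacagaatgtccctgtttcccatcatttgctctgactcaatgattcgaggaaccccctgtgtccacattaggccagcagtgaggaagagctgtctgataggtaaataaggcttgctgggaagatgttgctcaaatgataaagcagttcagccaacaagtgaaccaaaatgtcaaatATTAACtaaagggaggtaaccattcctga
Serpina1b (chr12:103738190-103738439, minus strand): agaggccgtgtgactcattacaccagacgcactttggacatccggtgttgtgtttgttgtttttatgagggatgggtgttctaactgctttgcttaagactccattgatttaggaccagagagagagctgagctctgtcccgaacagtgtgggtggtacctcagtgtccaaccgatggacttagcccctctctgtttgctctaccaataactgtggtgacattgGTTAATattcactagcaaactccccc
Serpina1e (chr12:103956898-103957147, minus strand): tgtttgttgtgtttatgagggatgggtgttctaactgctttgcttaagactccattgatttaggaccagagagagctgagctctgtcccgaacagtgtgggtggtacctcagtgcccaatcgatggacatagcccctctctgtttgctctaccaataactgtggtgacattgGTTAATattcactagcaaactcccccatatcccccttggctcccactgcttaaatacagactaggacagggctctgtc
The first base of the match lies 43, 29, 26 and 78 bases before the start, in that order. The Serpina1b and Serpina1e windows hold the same stretch around the match, shifted against each other. In windows from 250 bases before to 50 bases after the start, the half-site on either strand was in 4 of the 5 genes found in the table. It was also in 3 of 9 of the 15 genes with the highest ratio, namely Gc, Ltbp2 and Serpina1c, in none of 11 of the 15 with the lowest, and in 7.10% of all 32851 windows. The C/EBP letters TTGCNNAA, on either strand, were in 5 of 5, 3 of 9 and 1 of 11, and in 10.8% of all windows. The other motifs searched on both strands were HNF4 (CAAAGTNCA), STAT3 (TTCCNGGAA), TEAD (GGAATG) and SOX (ACAAAG). They were in 0, 1, 2 and 0 of the 5, and in 1.41%, 1.15%, 14.7% and 18.7% of all windows. A match describes these letters only.

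The 2740 and 3622 deposited cells of the Sox9cKO and Sox9con libraries left 2713 and 3507 kept cells, with no barcode in common. Median depth was 5041 UMIs in the kept Sox9cKO cells and 3203 in the kept Sox9con cells. Plasma protein cells were deeper than the other kept Sox9cKO cells, with medians of 6932 and 4831.5 UMIs (1.43 times as many), 2727 and 2110.5 genes, and mitochondrial shares of 5.27% and 5.92%. Sox9 itself does not clearly bear out the library labels, with 151 CPM (the UMIs of a gene scaled to a common total) in the plasma protein cells, 112 in the other Sox9cKO cells and 142 in the Sox9con library, so libraries are called by their labels. EGFP, an added sequence in the gene table, had 3 UMIs in the plasma protein cells and 13 in the others. The doublet caller Scrublet marked 3 of 6362 cells (0.0472%), too few to have worked on so many cells. Among the 5% of cells with the highest doublet scores were 11 plasma protein cells (2.95%) and 95 of the others (4.06%).

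In the Sox9cKO library 13.7% of kept cells were plasma protein cells (12.5 to 15.1), against 1 of 3507 in the Sox9con library (0.0285%, 0.000722 to 0.159). The share was 12.7%, 13.2%, 14.2%, 15.5% and 13.4% in first-round wells A11, A12, B1, B2 and B3. These wells hold parts of 1 barcoded sample and serve as a technical spread, not as replicates. Over the 8 sublibraries, sets of cells that share a last barcode, the share ran from 11.9% to 15.1%. All 5 Sox9cKO wells thus lay near one another and far above the 4 Sox9con wells, which held 0 or 1 such cell. Wells and libraries cannot be told apart, since each library had its own. The share moved with depth: 3.53% of cells in the shallowest of 4 equal groups by UMIs (1006 to 3525) were plasma protein cells, then 9.57%, 13.7% and 28.2% in the deepest (6867 to 28757). With every cell thinned to 2000 UMIs and shallower ones left out (169 and 616), it was 4.52% of 2544 Sox9cKO cells (3.75 to 5.40) and 0.0346% of 2891 Sox9con cells. At that equal depth any UMI of the 7 genes was found in 18.5% (Sox9cKO) and 0.934% (Sox9con), where the unthinned shares were 27.7% and 1.91%.

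**Figure D1:**
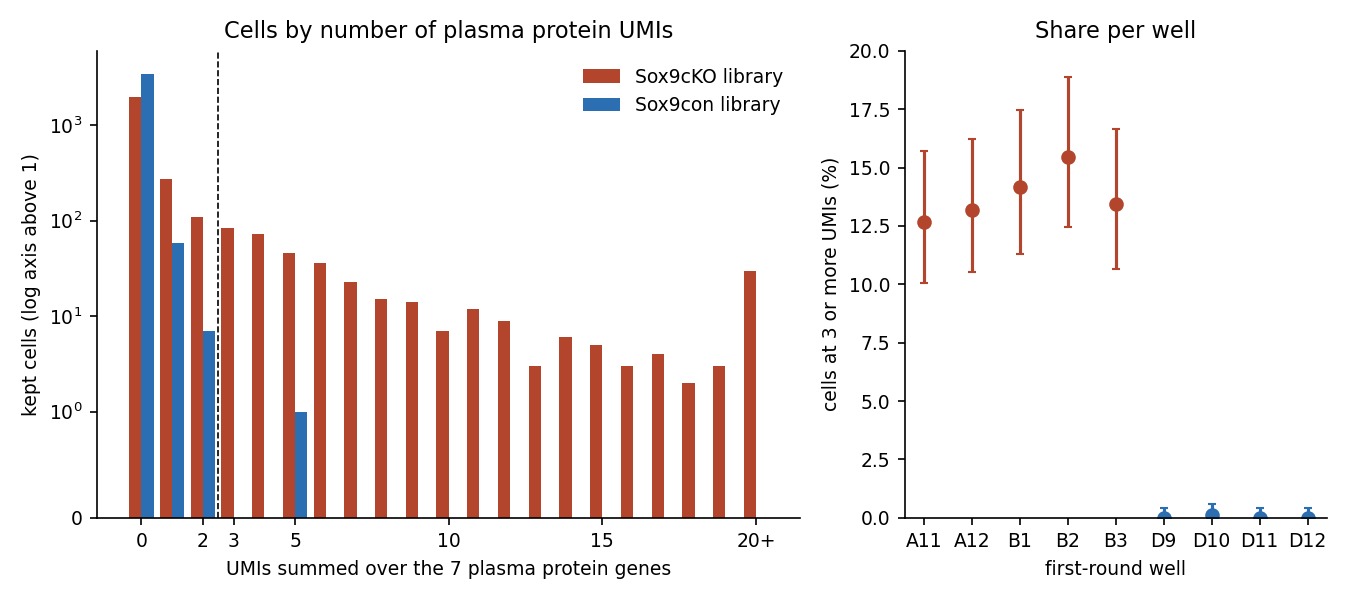
Left, kept cells (log axis above 1) by UMIs summed over the 7 plasma protein genes, in the Sox9cKO and Sox9con libraries, with the threshold of 3 as a dashed line. Right, share of kept cells at or above the threshold in each first-round well (%), with exact binomial 95% intervals. The 5 Sox9cKO wells sit between 12.7% and 15.5%, and the 4 Sox9con wells at or near 0.

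The 7 genes chose the cells, so their levels are a description. The plasma protein cells held 2997 UMIs of them, the other Sox9cKO cells 488 and the Sox9con library 78. These were 0.106% of all UMIs of the plasma protein cells, which had a median of 5 and at most 57 per cell. Threshold cells were common, with 83 cells (22.3%) at exactly 3, while 84 cells (22.5%) with 10 or more held 53.6% of these UMIs. Most cells had several of the genes, since 317 of 373 carried at least 2 of them, with a median of 3, and 8 carried all 7. Fga was seen in 73.5% of the cells, Serpina1b in 53.4%, Hp in 53.1%, Plg in 32.4%, Hpx in 28.7%, Serpina1e in 24.9% and Fgb in 22.8%. Hp (ENSMUSG00000031722) had 937 UMIs, or 332 CPM, against 3.84 CPM in the other cells and 1.19 in the Sox9con library. Its levels in the 5 wells were 463, 334, 328, 304 and 279.6 CPM, and 3.91, 2.82, 3.98, 3.02 and 5.79 CPM in the other cells. Fga (ENSMUSG00000028001) had 252, 22.7 and 2.30 CPM, in the same order of groups, and was seen in 9.66% of the other cells, a larger share than for any other of the 7.

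Leaving each gene in turn out of the rule, and choosing cells by the remaining genes, gave the gene's own log2 ratio in cells it had not chosen. It was 4.91 for Serpina1e (4.36 to 5.60), 3.93 for Hpx, 3.799 for Serpina1b, 3.79 for Hp (3.59 to 4.0), 3.73 for Fgb, 2.84 for Plg and 1.78 for Fga (1.59 to 1.97). These values are a description too, since the 7 genes were put in the rule together. Serpina1b and Serpina1e are near-identical copies, with transcripts of the 5 copies a to e 95.7% to 98.2% identical over the 10 pairs (GENCODE M21), so their separate levels are uncertain, and each was held out with the other still in the rule. Serpina1b also overlaps annotated genes on its own strand, and Plg overlaps Slc22a3 on the other. Without Serpina1b and Serpina1e in the rule, 11.4% of kept Sox9cKO cells would be in the class.

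Across genes outside the rule, the plasma protein cells differed from the other Sox9cKO cells in both directions. Of 7572 genes with at least 200 UMIs, 250 (3.30%) were at least 2-fold higher in them and 392 (5.18%) at least 2-fold lower, with a median log2 ratio of -0.01. Together 8.48% were apart by that much. Of the 250 higher genes 241 were higher in all 5 wells, and 385 of the 392 lower genes were lower in all 5. The 15 highest genes were taken among those higher in all 5 wells, so their agreement over wells was set by this choice. They were Ahsg, Trf, Fst, Serpina1c, Cdh2, Cpe, Gc, Scube3, Fgg, Antxr2, Nid1, Ltbp2, Adamtsl1, Ccl2 and Inhba. Their log2 ratios ran from 2.50 to 4.30, and each was also higher in all 8 sublibraries. Ahsg, Trf, Serpina1c, Gc and Fgg encode plasma proteins that were not in the rule. Cpe is carboxypeptidase E, which trims prohormones in secretory granules, Ccl2 a monocyte chemokine at 117 and 20.5 CPM, and Adamtsl1 and Scube3 are secreted proteins. Antxr2 is an anthrax toxin receptor that binds matrix proteins. Several of the 15 overlap annotated genes (Trf, Antxr2 and Adamtsl1 on their own strand, Ahsg, Fst, Cdh2, Fgg, Nid1, Ltbp2, Inhba and Ccl2 among those on the other), and strand use in counting is not given in the sources used here. Nos2, the inducible nitric oxide synthase, at 224 and 53.2 CPM (log2 ratio 2.07), and Igf1, a growth factor that hepatocytes secrete, at 306 and 56.8 CPM (log2 ratio 2.43), were added after their values were seen.

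**Figure D2:**
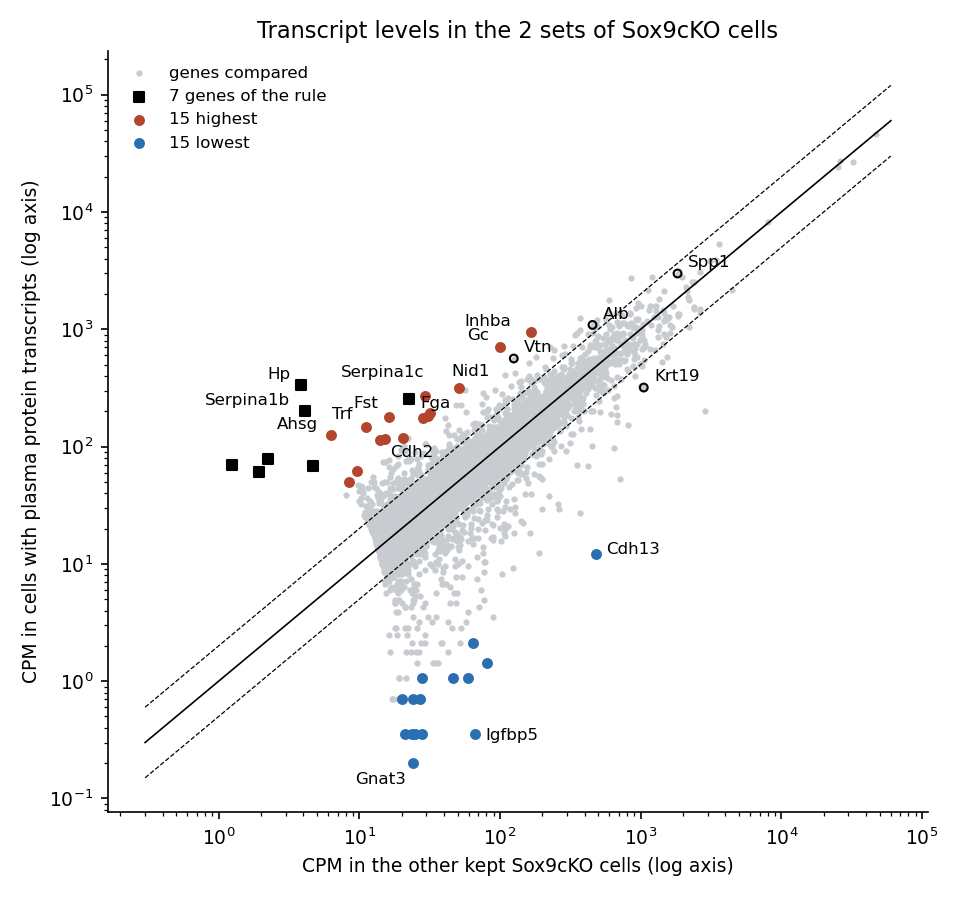
CPM in the 373 plasma protein cells (vertical, log axis) against the other 2340 kept Sox9cKO cells (horizontal, log axis) for 7572 genes, with the 7 rule genes as squares and the 15 highest and 15 lowest genes in colour. Dashed lines mark 2-fold, and Gnat3, with 0 UMIs in the plasma protein cells, is drawn at 0.2 CPM. Ahsg, Trf, Gc and Inhba lie above the dashed lines with the rule genes, Krt19 and Cdh13 below.

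Plasma protein genes outside the rule were higher as a group. Of 109 such genes in 7 lists, 49 had at least 50 UMIs, and 33 of the 49 were at least 2-fold higher while 0 were at least 2-fold lower. Among all 11320 genes with that many UMIs, 568 (5.02%) were 2-fold higher and 790 (6.98%) 2-fold lower. The median log2 ratio of the 49 was 1.51, with 1.27 to 1.57 over the wells, against -0.01 over all genes. All 33 were higher in each of the 5 wells. The lists include Gc, Vtn and other genes already known to be high in this library, so their direction is not independent evidence.

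Alpha-1-antitrypsin copies outside the rule numbered 3 with enough counts. All were at least 2-fold higher, beside 5.02% of all genes with at least 50 UMIs. Serpina1d had 18.4 and 0.919 CPM (log2 ratio 4.23), Serpina1a 40.4 and 3.01 CPM (log2 ratio 3.72) and Serpina1c 272 and 29.2 CPM (log2 ratio 3.22), each in plasma protein and other cells. Reads shared with the rule's own copies cannot be told apart from these.

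Of 10 measured coagulation and fibrinolysis genes, 7 were at least 2-fold higher (median 2.10), beside 5.02% of all genes with at least 50 UMIs. Vtn (ENSMUSG00000017344), which encodes vitronectin, an adhesive plasma and matrix protein, had 563 CPM in the plasma protein cells and 125 CPM in the others, a log2 ratio of 2.17 (2.07 to 2.27). Its levels in the wells were 599, 509, 626, 698 and 413 CPM, and 166, 92.5, 136, 129 and 125 CPM in the other cells. The ranges did not overlap, and in the Sox9con library it stood at 9.83 CPM. Fgg, the third fibrinogen chain, had 194 and 31.6 CPM (log2 ratio 2.62). Serpind1 (heparin cofactor II) had 16.7 and 1.50 CPM (log2 ratio 3.41), Kng2, a kininogen, 11.4 and 2.09 CPM (log2 ratio 2.40), Klkb1, plasma prekallikrein, 10.6 and 2.005 CPM (log2 ratio 2.37), and F12, coagulation factor XII, 23.8 and 5.76 CPM (log2 ratio 2.03). Not every coagulation gene did so: F5 and Serpinc1 (antithrombin) had log2 ratios of 0.37 (-0.56 to 1.24) and 0.33 (-0.64 to 1.22), intervals that include 0, and the other 11 of the 21 listed genes were under 50 UMIs.

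Among plasma carriers, 7 of 9 measured genes were at least 2-fold higher (median 1.81), beside 5.02% of all genes with at least 50 UMIs. Ahsg (ENSMUSG00000022868), fetuin-A, an inhibitor of calcification, had 125 CPM in the plasma protein cells and 6.26 CPM in the others, a log2 ratio of 4.30 (3.95 to 4.70). Across the wells it ran 119.8, 104, 197, 139 and 70.3 CPM, against 5.03, 4.07, 17.7, 1.73 and 3.72 CPM, and B1 was the highest well in both sets. Gc (ENSMUSG00000035540), the vitamin D binding protein, had 710.4 CPM in the plasma protein cells and 99.98 CPM in the others, a log2 ratio of 2.83 (2.72 to 2.93). Trf, transferrin, the iron carrier, had 145 and 11.1 CPM (log2 ratio 3.70), and Serpina6, the corticosteroid binding globulin, had 41.1 and 1.84 CPM (log2 ratio 4.44). Alb (ENSMUSG00000029368), albumin, differed less, at 1089 CPM in the plasma protein cells and 454 CPM in the others, a log2 ratio of 1.26 (1.20 to 1.32), and stood at 355 CPM in the Sox9con library. Rbp4, the retinol carrier, had a log2 ratio of 1.81 and Cp, the copper carrier ceruloplasmin, 1.58. Ttr, transthyretin, at 0.75, and Ambp, at 0.21, were under 2-fold. In the Sox9con library Cp stood at 1048, Ttr at 158 and Ambp at 596 CPM, against 1777, 105 and 461 in plasma protein cells. Gc, Ahsg, Trf, Serpina6 and Rbp4 stood at 10.9, 10.9, 5.39, 0.555 and 6.03 CPM in the Sox9con library.

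Apolipoproteins were divided, with 4 of 7 measured genes at least 2-fold higher. For this list and the 2 that follow, 5.02% of all genes with at least 50 UMIs were 2-fold higher. Apob, the core protein of very low density lipoprotein, had 667 and 241 CPM (log2 ratio 1.47), Apoe 1248 and 369 CPM (log2 ratio 1.76), Apoc1 50.01 and 12.8 CPM (log2 ratio 1.96) and Apoh 8.16 and 2.51 CPM (log2 ratio 1.68). Apoa1 (ENSMUSG00000032083), the core protein of high density lipoprotein, had 8.51 and 8.10 CPM, a log2 ratio of 0.07 (-0.64 to 0.73). Apoa2 had 0 UMIs in the plasma protein cells. In the Sox9con library Apob stood at 56.1 CPM, Apoe at 1031, Apoc1 at 72.4, Apoh at 1.74 and Apoa1 at 12.7. Apoc1 and Apoa1 were thus higher in that library than in the plasma protein cells. Complement genes were at least 2-fold higher in 8 of 11 (median 1.28). C3, the central component, had 2805 and 1199.7 CPM (log2 ratio 1.23) and 372 CPM in the Sox9con library, Cfb, its convertase partner, 263 and 79.8 CPM (log2 ratio 1.72), and C1s1, a protease of the classical pathway, 33.7 and 3.09 CPM (log2 ratio 3.42). Genes of the acute phase and of protease inhibition were mixed, at 4 of 9 (median 0.52). Itih2, a hyaluronan binding inhibitor subunit, had 407 and 108 CPM (log2 ratio 1.91) and Pzp 352 and 137 CPM (log2 ratio 1.36), while Lrg1 had -0.33 and Crp 0.18. Saa1, Saa2 and Orm1, strong acute phase genes of hepatocytes, had 0 UMIs in the plasma protein cells. The 8 major urinary protein genes did not reach 50 UMIs, and 7 of them had 0 UMIs there.

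**Figure D3:**
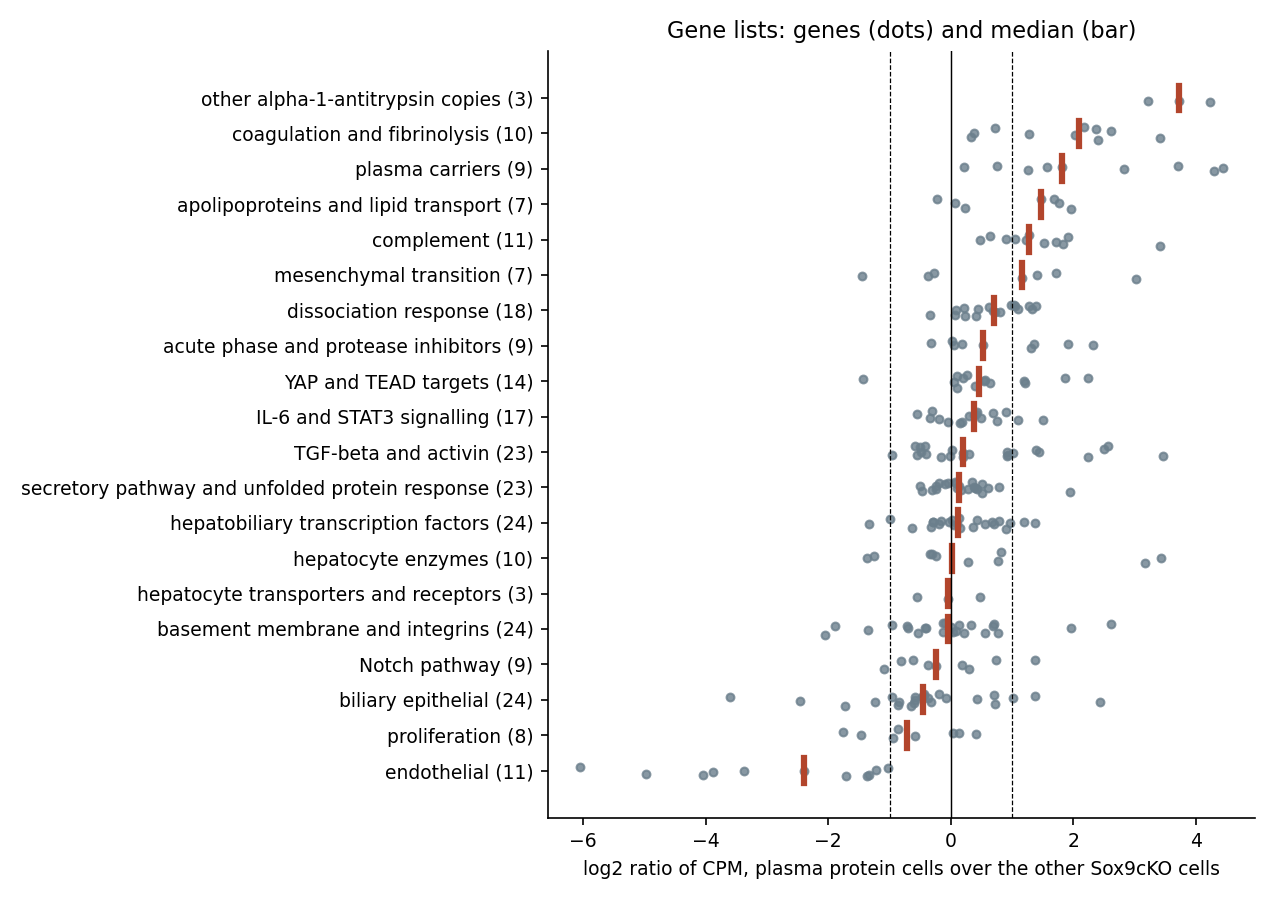
Log2 ratio of CPM in the plasma protein cells over the other kept Sox9cKO cells (horizontal) for each measured gene (dots) of 20 lists, with the list's median as a bar and the number of measured genes in brackets. A gene with 0 UMIs in the plasma protein cells is drawn at the bound against 3 counts, dashed lines mark 2-fold, and vertical scatter is for visibility only. Medians of the 6 measured plasma lists lie right of 0, that of hepatocyte enzymes near 0 and that of endothelial markers to the left.

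Hepatocyte enzymes were divided. The 10 measured enzyme genes of 30 had a median log2 ratio of 0.03, with 2 at least 2-fold higher and 2 lower, where 5.02% and 6.98% of all genes with as many UMIs were. The higher pair were Tat, tyrosine aminotransferase, at 23.1 and 2.09 CPM (log2 ratio 3.42), and G6pc, the glucose-6-phosphatase of gluconeogenesis, at 17.03 and 1.84 CPM (log2 ratio 3.17), both higher in all 5 wells. The lower pair were Adh1 at -1.37 (-2.65 to -0.35) and Sult1a1 at -1.26. Cps1, the first enzyme of the urea cycle, stood at 9.58 and 12.2 CPM, and Cyp2e1, a pericentral cytochrome, had 0 UMIs in the plasma protein cells and 9 in the others. Of the 15 markers that define hepatocytes, 7 were measured and Ahsg and Alb were at least 2-fold higher. Under the minimum of 50 UMIs in all, the enzymes Bhmt, Fbp1 and Tdo2 were named after their values were seen. They had 41 and 7, 17 and 11, and 9 and 2 UMIs in the plasma protein and other cells. Of the 20 listed enzymes under that minimum, 7 had 0 UMIs in the plasma protein cells. These were Cyp2e1, Hpd, Hal, Cyp1a2, Cyp7a1, Cyp8b1 and Ugt2b1, with 5 UMIs of Hal and 1 of Hpd in the other cells. Summed over the 15 markers, levels were 1949 and 1065 CPM, with 1480.5 to 2306 and 877 to 1167 over the wells. Apoa2, Cyp2e1, Mup3 and Asgr1 of that list had 0 UMIs. Hepatocyte transporters and receptors had 3 measured genes and none at 2-fold, namely Ghr at 0.47, Slc2a2 at -0.04 and Lifr at -0.56.

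Of 24 measured hepatobiliary transcription factors, 2 were at least 2-fold higher and 1 lower (median 0.12), near the 5.02% and 6.98% of all genes with as many UMIs. Onecut1 (HNF6), a factor of biliary development, had 87.96 and 33.9 CPM (log2 ratio 1.37), and Nr5a2, a nuclear receptor of bile acid and lipid genes, had 322 and 140.3 CPM (log2 ratio 1.20). Prox1, a factor of the hepatoblast and hepatocyte, was just under 2-fold at 288 and 147 CPM (log2 ratio 0.97). Klf5, an epithelial factor, was lower at 258 and 651 CPM (log2 ratio -1.34), and Nr1h4, the bile acid receptor, was just under 2-fold lower at -0.998. Hnf4a stood at 511 and 461 CPM (log2 ratio 0.15), Cebpa at 38.3 and 23.97 CPM (log2 ratio 0.67) and Cebpb at 17.4 and 17.8 CPM (log2 ratio -0.03), each within 2-fold. Sox9 was higher in the plasma protein cells than in the others by 0.43 (0.27 to 0.58) on the log2 scale. Its well levels were 169, 135, 174, 151 and 139 CPM, against 86.05, 121, 135, 111 and 101 CPM, and the ranges met without overlapping, the lowest plasma protein value being 134.8 and the highest other value 134.5 CPM.

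Genes of activin and TGF-beta signalling went both ways. Of 23 measured, 7 were at least 2-fold higher and 0 lower, with a median of 0.20, beside 5.02% higher and 6.98% lower among all genes with as many UMIs. Inhba (ENSMUSG00000041324), the subunit that pairs into activin A, had 940.3 CPM in the plasma protein cells and 166 CPM in the others, a log2 ratio of 2.50 (2.42 to 2.59). Its well levels were 1220.0, 748, 1144, 753 and 1008 CPM, against 208, 169.6, 158, 138 and 162 CPM, so that the 2 ranges were far apart, and it stood at 73.5 CPM in the Sox9con library. Fst (ENSMUSG00000021765), follistatin, which binds and neutralises activin, had 179 CPM in the plasma protein cells and 16.2 CPM in the others, a log2 ratio of 3.46 (3.23 to 3.72), and Fstl3, a related inhibitor, 27.7 and 13.6 CPM (log2 ratio 1.02). Ltbp2, a matrix protein of the latent TGF-beta binding family, had 50.4 and 8.44 CPM (log2 ratio 2.57), while the related Ltbp1 had 1307 and 1842 CPM (log2 ratio -0.49). Of TGF-beta response genes, Ccn2 (connective tissue growth factor) had 92.9 and 19.7 CPM (log2 ratio 2.23) and Bambi 7.80 and 2.84 CPM (log2 ratio 1.44). Among ligands, Tgfb2 had a log2 ratio of 0.92, Tgfb3 0.93 and Inhbb -0.17, and among receptors Tgfbr1 had 0.29 and Acvr1b -0.41. The intracellular mediator Smad3, at -0.58, the receptor Tgfbr2, at -0.55, and the ligand Tgfb1, at -0.96 (-1.69 to -0.31), were lower by less than 2-fold.

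Among IL-6 and STAT3 genes, which drive the acute phase in hepatocytes, 2 of 17 measured were at least 2-fold higher, Steap4 at 40.1 and 14.1 CPM (log2 ratio 1.50) and Pim1 at 142 and 66.5 CPM (log2 ratio 1.09) (median 0.38). Socs3, a feedback inhibitor of the pathway, stood at -0.34 (-0.84 to 0.13). YAP and TEAD targets were 2-fold higher in 4 of 14 (median 0.47), namely Ccn2, Ajuba, Ccn1 and Ankrd1, of which Ajuba was higher in 4 of 5 wells. F3, tissue factor, was lower at 525 and 1422 CPM (log2 ratio -1.44). Of 9 Notch genes, the ligand Jag1 was higher at 195 and 75.3 CPM (log2 ratio 1.37) and the ligand Dll1 lower at 20.9 and 44.9 CPM (log2 ratio -1.10) (median -0.23). Of 23 genes of the secretory pathway and unfolded protein response, 1 was 2-fold higher, Creb3l3, a membrane-bound factor of hepatocyte lipid and acute phase genes, at 24.8 and 6.43 CPM (log2 ratio 1.94). The chaperones Hspa5 and Hsp90b1 had log2 ratios of 0.43 and 0.61. Among all 11320 genes with at least 50 UMIs, 5.02% were 2-fold higher and 6.98% 2-fold lower. The share 2-fold higher was 11.8% of the IL-6 and STAT3 genes, 28.6% of the YAP and TEAD targets and 11.1% of the Notch genes. In the secretory list it was 4.35%, near that of all genes.

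Adhesion and matrix genes went both ways. Cdh2 (ENSMUSG00000024304), N-cadherin, the cadherin hepatocytes carry beside E-cadherin, had 113 CPM in the plasma protein cells and 13.9 CPM in the others, a log2 ratio of 3.01 (2.75 to 3.30), and Cdh1, E-cadherin, had 1280.1 and 1551 CPM (log2 ratio -0.28). Ncam1 had 425 and 129 CPM (log2 ratio 1.72), Fn1, fibronectin, 989.9 and 372 CPM (log2 ratio 1.41) and Zeb1 374 and 166 CPM (log2 ratio 1.17). These are 4 of the 7 measured genes of a mesenchymal transition list (median 1.17). Vim, its best known member, was lower at 2.48 and 6.93 CPM (log2 ratio -1.46, -2.84 to -0.37, 7 and 83 UMIs), and turned to 1.60 without cells holding markers of other cell types and to 0.39 after thinning. Of 24 basement membrane and integrin genes, Nid1, nidogen, was higher at 314 and 51.3 CPM (log2 ratio 2.61), and so was Lama1, in 4 of 5 wells, on 27 and 29 UMIs (1.95; -3.52 after thinning). Lower by at least 2-fold were Itgb6, an epithelial integrin that activates latent TGF-beta, at 163 and 679 CPM (log2 ratio -2.06), and the laminin-332 chains Lamb3 (-1.89) and Lama3 (-1.35). Thus 2 of the 24 were higher and 3 lower, beside 5.02% and 6.98% of all genes with at least 50 UMIs.

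The plasma protein cells carried biliary transcripts, at lower levels for several markers. At full depth a UMI of Spp1 was seen in 373 of 373 cells, of Epcam in 93.0% and of Krt19 in 70.0%. In the other, shallower cells these shares were 89.8%, 90.0% and 87.8%. With cells thinned to 2000 UMIs, Krt19 was seen in 38.7% of plasma protein cells and 77.3% of the others. It was seen in 30.8% of those others that held endothelial markers (endothelial-marker cells, described below). In the same order, Epcam was seen in 61.8%, 77.8% and 30.8%, and Spp1 in 96.0%, 82.3% and 37.2%. All 24 biliary markers were measured, 3 were at least 2-fold higher and 4 lower, with a median of -0.46. Of all genes with at least 50 UMIs, 5.02% were 2-fold higher and 6.98% 2-fold lower. Krt19 (ENSMUSG00000020911), a keratin of duct cells, had 319 CPM in the plasma protein cells and 1052 CPM in the others, a log2 ratio of -1.72 (-1.82 to -1.63). Its well levels were 398, 262, 337, 356 and 287 CPM, against 1267, 948, 1111, 1115 and 912 CPM, with no overlap. Krt7 had 99.3 and 234 CPM (log2 ratio -1.23) and Epcam 491 and 884 CPM (log2 ratio -0.85). For Aqp1, a water channel, 3 and 163 UMIs gave a log2 ratio of -3.60 (-5.97 to -2.10). Other biliary genes were higher: Sctr, the secretin receptor, at 12.1 and 2.17 CPM (log2 ratio 2.44), Bicc1, an RNA-binding protein of tubule cells, at 921 and 457 CPM (log2 ratio 1.01), Pkhd1, fibrocystin of the cilium, at 1007 and 608 CPM (log2 ratio 0.73), and Spp1, osteopontin, at 2988 and 1828 CPM (log2 ratio 0.71). The label of biliary cells is therefore met by Spp1 and Epcam, seen in most plasma protein cells at either depth, with keratins below the rest of the library. For Krt19 the thinned shares of plasma protein and endothelial-marker cells had overlapping intervals (33.7% to 43.9% and 20.8% to 42.2%). Its detection alone therefore does not show the label to be met. In the Sox9con library Krt19 stood at 1577 and Spp1 at 4000.0 CPM.

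Genes with the lowest ratio included markers of other cells of the liver. Gnat3, a taste and tuft cell G protein, had 0 UMIs in the plasma protein cells and 288 in the others, at least 22.6-fold lower against a floor of 3 counts over the group. Igfbp5, an insulin-like growth factor binding protein, had 1 and 795 UMIs (-7.30, -12.85 to -5.07). Cdh13, T-cadherin, had 34 and 5776 UMIs, or 12.1 CPM in the plasma protein cells and 482 CPM in the others, a log2 ratio of -5.31 (-5.85 to -4.84). Pdx1, a factor of the pancreas, duodenum and bile duct, had 1 and 254, and Bcl11a 1 and 297. Anxa1 (-4.87), Pik3r5 (-5.81), Gm35533 (-5.71), Rhof (-4.71) and Ptprr (-4.63) were also among the 15 lowest, taken among genes lower in all 5 wells. Kdr, Flt1, Cdh5 and Mrc1 are genes of sinusoidal and other endothelium. Dmbt1, a mucin-like secreted protein of duct epithelium named after its value was seen, had 202 and 2868 CPM (log2 ratio -3.83).

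At least 3 UMIs of 14 endothelial markers were found in 107 of 2340 other Sox9cKO cells and 11 of 373 plasma protein cells. All 11 measured markers were at least 2-fold lower in the plasma protein cells (median -2.39). Of all 11320 genes with at least 50 UMIs, 6.98% were. Summed, the markers stood at 45.4 and 279 CPM, with 36.1 to 68.8 and 214 to 392 over the wells, and Tie1 and Vwf had 0 UMIs in the plasma protein cells. Without the cells holding those markers, an alternative chosen after seeing the data, the list's median was 0.10, with Tek, Stab1 and others above 0, and Mrc1 went from -5.11 to -0.56, Kdr to -3.74 and Cdh5 to -3.60. Igfbp5 (-7.27) and Cdh13 (-5.31) stayed far apart, and the 15 highest genes had 2.53 to 4.33. Flt1 had -7.13 there, a fitted value on few counts. Mesenchymal markers had a median of -1.84 over 5 genes, which turned to 0.31 without cells holding markers of other cell types, 0.79 after thinning and 0.64 without well A12. Of them Col1a1 had 5 and 44 UMIs and Rgs5 was higher at 196 and 57.2 CPM (log2 ratio 1.77). Mesothelial markers had -2.32 over 3 and pancreatic acinar markers -2.21 over 4. Of macrophage markers Csf1r had 52.1 and 28.1 CPM (log2 ratio 0.89) while Ptprc, C1qa and Adgre1 had 0 UMIs. Lymphocyte, neutrophil and erythroid markers did not reach 50 UMIs.

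Of 18 genes that respond to tissue dissociation, 6 were at least 2-fold higher in the plasma protein cells (median 0.71), led by Egr1 at 929 and 355 CPM (log2 ratio 1.39) and Fos at 714 and 286 CPM (log2 ratio 1.32). The 6 were 33.3% of the list, beside 5.02% of all genes with at least 50 UMIs. Summed over the list they stood at 6397 to 10057 CPM over the wells, against 4243 to 5226. Proliferation genes had a median of -0.72 over 8, with Mki67 at 7.09 and 19.7 CPM (log2 ratio -1.47). The part of dissociation genes in the ratios above was not tested. Compared within 10 bands of depth, with the same 373 cells, 272 genes were at least 2-fold higher and 373 lower, the plasma list median was 1.60 and the 15 highest genes had log2 ratios from 2.18 to 4.42. Thinning to 2000 UMIs before the cells were chosen left 115 cells in the class, and the 15 highest genes then had 1.53 (Ltbp2) to 4.23 (Ahsg).

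Levels by the number of UMIs over the 7 genes show how sharp the class is. Cells with 0, 1, 2, 3 to 4, 5 to 9 and 10 or more numbered 1961, 270, 109, 155, 134 and 84, with median depths of 4658, 5524, 5819, 5966, 7003 and 9014.5 UMIs. Vtn, outside the rule, had 64.4, 329, 504, 576, 538 and 579 CPM in that order, and so was nearly as high in cells with 2 as in those with 10 or more. Alb had 334, 917, 1059, 1132, 1092 and 1029 CPM, lower at 1 UMI than at 3 to 4 and within 1029 to 1132 from 2 upward. Gc, in contrast, went on increasing, with 66.3, 224, 282, 508, 611 and 1092 CPM, and so did Trf (7.14, 20.3, 45.5, 71.4, 93.8 and 304 CPM) and Ahsg (2.17, 13.5, 46.98, 54.5, 78.02 and 273 CPM). Inhba had 107, 403, 436, 652, 938 and 1307 CPM and Fst 10.8, 27.6, 66.1, 123, 158 and 278 CPM, both higher in each step. Cdh2 had 9.004, 30.7, 44.04, 39.7, 95.8 and 228 CPM. Nos2 differed in shape, with 51.1, 53.4, 82.2, 229, 312 and 106 CPM, highest at 5 to 9. Krt19 was lower in each step, with 1119, 833, 618, 365, 358 and 210.4 CPM, and Epcam went from 924 to 389 CPM. Some neighbouring steps were within counting error for each of Gc, Trf, Ahsg, Inhba, Fst and Krt19. Intervals overlapped for Krt19 at 3 to 4 and 5 to 9 UMIs (329 to 404 and 322 to 396 CPM). They also did for Inhba at 1 and 2 UMIs (373 to 436 and 388 to 489 CPM). Apoa1 had 8.07, 7.37, 10.3, 8.93, 6.91 and 10.02 CPM, all intervals overlapping, and Sox9 went from 109 to 175 CPM. Thinning each cell to 2000 UMIs left the Vtn log2 ratio of 10 or more over 0 at 3.06, where it was 3.17.

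Cells just inside and outside the threshold were alike in depth, with medians of 5821 UMIs in the 83 cells at 3 and 5819 in the 109 at 2. Vtn had 526 and 504 CPM there, Gc 461 and 282, Trf 78.1 and 45.5, Inhba 602 and 436, and Krt19 398 and 618. Cells at 2 thus carried these transcripts too, with Vtn nearly level across the threshold and Gc, Trf and Inhba lower below it.

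**Figure D4:**
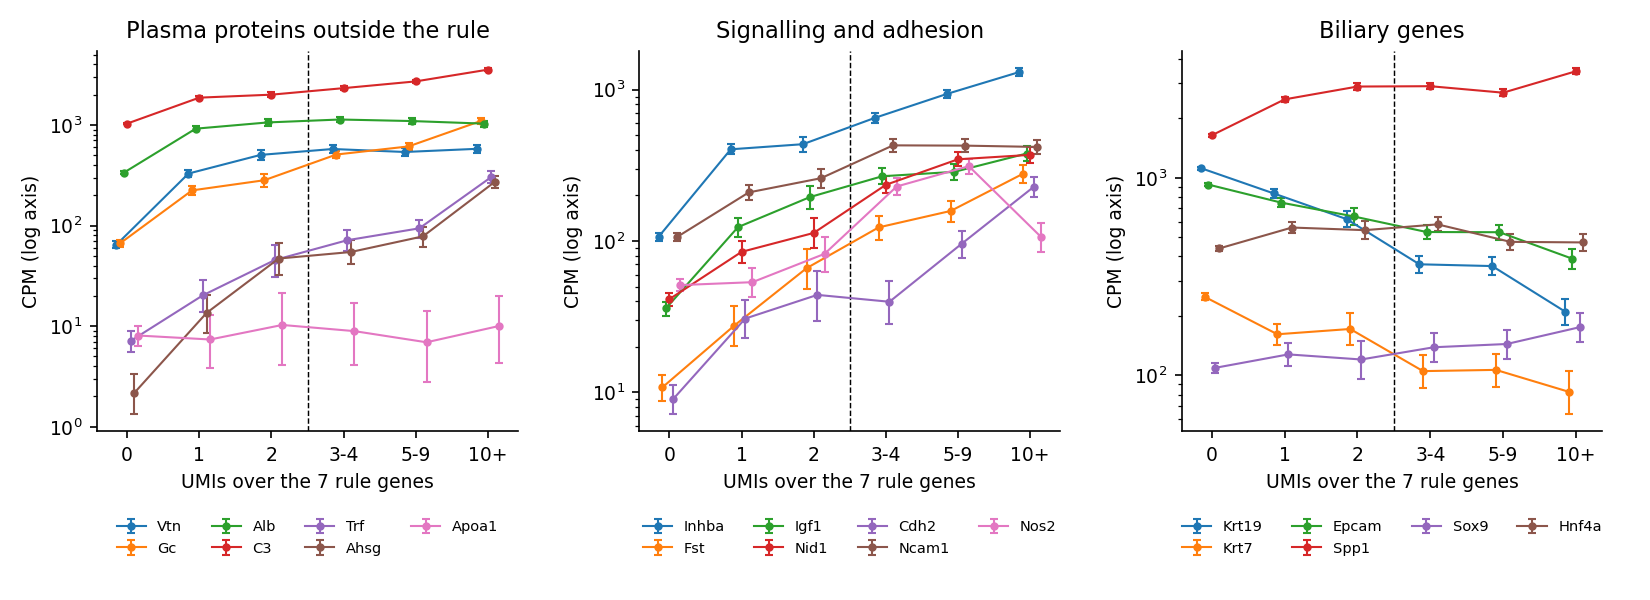
CPM (log axis) of 20 genes in kept Sox9cKO cells grouped by UMIs over the 7 rule genes, with exact Poisson 95% intervals and the threshold as a dashed line. Gc, Trf, Ahsg, Inhba and Fst are higher in each group to the right, and Krt19 is lower, with intervals of some neighbouring groups overlapping. Vtn and Alb change little from 2 UMIs upward, and Apoa1 is flat.

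Free RNA from lysed cells can give UMIs in cells that do not express a gene. Shares of cells with a UMI were therefore set beside those in endothelial-marker cells. At full depth Spp1 was seen in 43.9%, Epcam in 34.6% and Krt19 in 30.8% of these 107 cells. The set is thus not shown to lack biliary transcripts, and its shares are not a measured level of free RNA. At 2000 UMIs per cell Vtn was seen in 56.5% of 372 plasma protein cells, 14.4% of 2172 other cells, 2.56% of 78 endothelial-marker cells (2 cells) and 1.49% of 2891 Sox9con cells. The endothelial-marker cells had a median of 3155 UMIs before thinning. Gc was seen in 62.6%, 11.97%, 3.85% and 1.83%, Inhba in 48.4%, 13.4%, 3.85% and 8.41%, and Krt19 in 38.7%, 77.3%, 30.8% and 81.3%. The plasma protein cells stood far above the endothelial-marker cells for Vtn, Gc and Inhba. The endothelial-marker cells were taken from the other kept cells only, so 11 plasma protein cells with such markers were left out. The plasma protein cells were chosen at full depth by their UMIs of the rule genes, before thinning. Because of this choice, the gap cannot tell expression from free RNA. Alb was seen in 15.4% of endothelial-marker cells and 72.8% of plasma protein cells. Apoa1 was seen in 1 of 78 and 5 of 372 cells, too few to compare its shares. The part of free RNA in the levels above was not tested.

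The 5 wells gave separate ranges for the genes the account rests on. Gc ran 833, 586, 954, 603 and 668 CPM in wells A11, A12, B1, B2 and B3, against 118, 93.4, 127, 68.3 and 100.1 CPM in the other cells. Trf ran 155, 77.4, 261, 139 and 123 CPM, with B1 the highest and A12 the lowest, against 9.50, 9.09, 12.8, 10.4 and 14.1 CPM. Fst ran 269.6, 103, 302, 132 and 151 CPM, against 20.7, 18.2, 20.8, 7.78 and 14.1 CPM, and Cdh2 84.4, 149.5, 95.9, 89.3 and 125 CPM, against 23.5, 13.5, 8.41, 14.7 and 12 CPM. Krt7 ran 117, 72.1, 95.9, 120.3 and 106 CPM, against 231, 252, 235, 249 and 194 CPM. For Hnf4a the ranges overlapped, at 455 to 631 and 412 to 503 CPM.

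**Figure D5:**
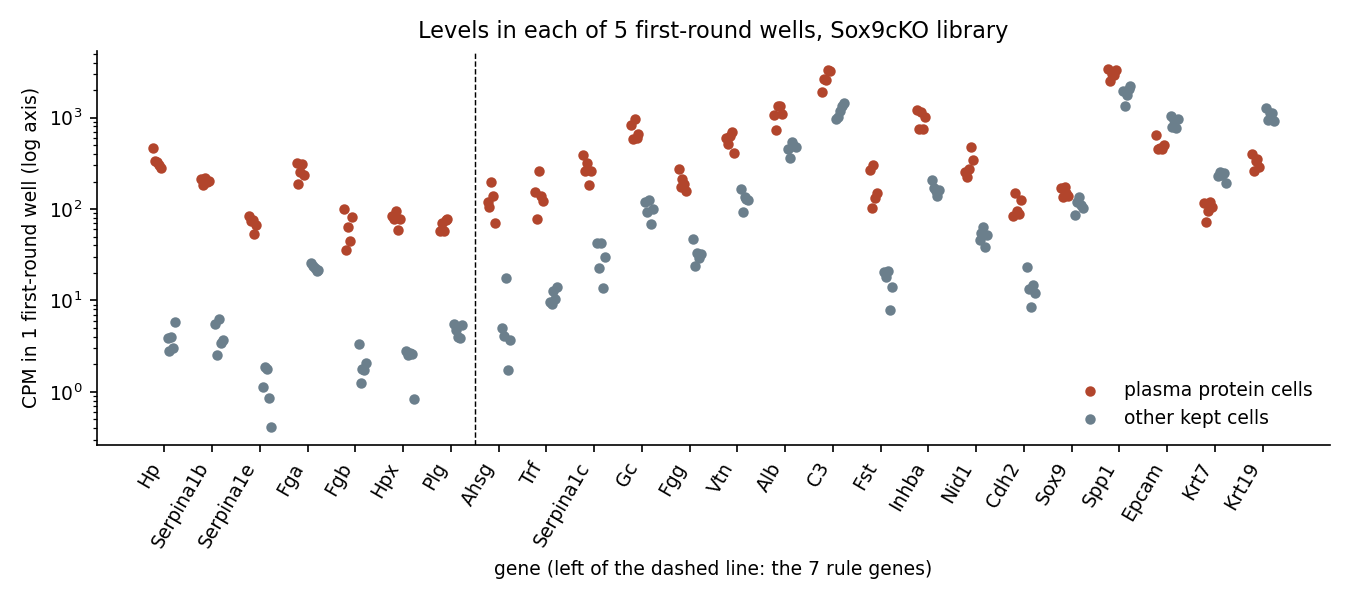
CPM (log axis) of the 7 rule genes and 17 others in the plasma protein cells and the other kept Sox9cKO cells, 1 point for each of 5 first-round wells. The 2 sets of points are apart for the genes drawn, closest for Sox9, and lie in reverse order for Epcam, Krt7 and Krt19.

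The only plasma protein cell of the Sox9con library had 2587 UMIs and 1327 genes. Its 5 UMIs were all of Serpina1e. It had 6 UMIs of Nid1, 3 each of the endothelial markers Pecam1 and Cdh5, 2 of Alb, 1 of Gc and 0 of Hp, Vtn, Inhba, Krt19, Krt7, Epcam, Spp1 and Sox9. A single cell allows no comparison, and at 2 or more UMIs the Sox9con library held 8 such cells.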

How the data were processed

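UMI counts per cell and gene were deposited by the authors for each library. The labels' protocols name fixed cells and the Evercode Whole Transcriptome kit, with random hexamer and oligo(dT) primers. The gene tables name a genome mg39 and include EGFP, and the submitters' processing notes name GRCm39. The aligner, the strand setting and the choice of cells are not given in the sources used here.

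Counts were summed over cells of each set. CPM is over UMIs outside the 7 rule genes. The log2 ratio adds 0.5 counts, and its interval is exact conditional binomial. Levels have exact Poisson and shares Clopper-Pearson intervals, at 95%. No test was run. Named are the 15 highest and 15 lowest of genes with at least 200 UMIs that kept their direction in every well, the 3 highest and 2 lowest of each of 29 lists, the 7 rule genes, and a set of regulators and markers such as Sox9, Alb and Krt19 whatever their value. Other list members were named after their values were seen. A few genes are not reported here. The members and lists were chosen with earlier results of these data known. Fold recovery was tested on simulated data, and the outcome is not reported here. Python 3.11.15, scanpy 1.11.5, edgeR 4.0.16 (TMM factors) and DESeq2 1.42.0 (size factors) were used. Total UMIs were 14794895 and 12613570 in kept Sox9cKO and Sox9con cells.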

Additional observations from a re-analysis of the deposited data

How the results depend on the processing

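No paired analysis was possible because each group has 1 library and its replicate number is only a name. The share of plasma protein cells was 17.8% at 2 UMIs or more, 8.04% at 5 or more, 11.4% without Serpina1b and Serpina1e, 10.2% without cells holding markers of other classes and 4.52% (115 cells) with cells thinned before they were chosen, and 13.4% to 14.03% with each well left out. Sox9con cells in the class numbered 8 at 2 UMIs or more. Higher genes numbered 151 in thinned cells (4424 genes tested), 394 at a minimum of 100 UMIs (9613 tested) and 3284 at 1 UMI (23988 tested). Lower genes numbered 6716 at 1 UMI. At that minimum a single UMI is enough for 2-fold, as for Apoa2 with 0 and 1 UMIs (log2 ratio -1.16). The counts at 1 UMI are therefore no measure of differing genes. Otherwise higher and lower genes ran from 188 to 301 and from 334 to 558. With TMM and DESeq2 factors they were 214 and 209 higher, 446 and 454 lower. The plasma list median was 1.38 without cells holding markers of other classes, 1.32 without well A12, 1.39 without B1 and 1.84 against other cells with 0 rule UMIs.

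Reversed without cells holding markers of other classes were the mesenchymal median (0.31), Vim (1.60), Tek (0.70), Stab1 (0.26), Stab2 (1.87), Clec4g (0.63), Ptprb (0.068), Egfl7 (0.85), Col1a2 (0.13), Col3a1 (0.85) and Dcn (1.39). Without cells holding endothelial markers, chosen after seeing the data, so were the endothelial median (0.099), Pecam1 (0.099), Tek (0.70), Stab1 (1.22), Ptprb (0.26), Egfl7 (1.51) and Erg (0.48). Both settings remove cells by those same markers. In thinned cells the mesenchymal median (0.79), Lama1 (-3.52), Vim (0.39) and Dcn (0.22) reversed, as did the mesenchymal median without well A12 (0.64) and Cpa1 without B3 (0.68); the cause was not tested. The 20 reversals of named genes stand beside 4612 values within counting error and 696 outside it.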
